A study of Danio rerio with 12 samples.

Results

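The Hippo pathway genes described here are the zebrafish coactivators yap1 and wwtr1 (Taz), the Tead transcription factors tead1a, tead1b, tead3a and tead3b, the kinases lats1 and lats2, and the kinase activators mob1a and mob1ba. They were found by gene symbol, ignoring case and, where that failed, the final paralog letter. This gave 10 of the 25878 gene identifiers of the table. The symbol TEAD1 stood for tead1b, and TEAD3 stood for 2 identifiers (ENSDARG00000063649 and ENSDARG00000074321), which the sources used here do not assign to tead3a or tead3b, so they are told apart by identifier.

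Trunk neural crest cells came from sox10:H2B-Dendra2 transgenic zebrafish embryos, in which a histone fused to a photoconvertible protein is driven by the promoter of the crest gene sox10. The 4 premigratory libraries were taken at 16 hours and the 8 migratory libraries at 24 hours after fertilisation, the latter beside somites 10 to 15, and all carry the control label as treatment. Each library held RNA of 20 sorted cells whose nuclei had been converted by light, and 8 embryos were converted per population, so a library can pool cells of several embryos. The comparison is of premigratory with migratory crest. Since every premigratory library is of 16 hours and every migratory library of 24 hours, migration and age cannot be told apart.

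The Hippo pathway is a kinase cascade that restrains growth and responds to cell shape, contact and tension. The kinases Stk3 and Stk4 with the scaffold Sav1 activate Lats1 and Lats2, which need Mob1 as an activator. Lats kinases phosphorylate Yap and Taz, which then stay in the cytoplasm. Unphosphorylated Yap and Taz enter the nucleus and drive target genes with Tead factors. In mouse, Yap and Taz of the neural crest are needed for the development of the face. RNA levels do not show phosphorylation or the place of the proteins in the cell.

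Values are normalised counts of the authors, called normalised values below. Their sum per library ran from 10735983 to 21711424 before migration, and from 17765775 to 24227327 for migratory crest. Premigratory libraries had 3650 to 6879 genes at a value of 10 or more, and migratory libraries 9007 to 11896. Of the genes that could be tested, 28.8% to 52.5% reached 10 in each premigratory library and 64.0% to 84.9% in each migratory library. SOX10, the gene whose promoter marks the cells, was seen in every library, at 3769 to 16200 before migration and at 1225 to 22646 later. Other crest markers were less even before migration. FOXD3 was at 2522, 5.80, 1.99 and 2940 in premigratory replicates 1 to 4, and crestin at 5.97, 4299, 4082 and 1788. Of 13 crest marker rows, 8 reached 10 in any premigratory library and 13 in any migratory library. The migratory group has more libraries, each with more genes at 10 or more, which by itself raises such a count. In such bulk libraries, fewer cells that express a gene and less RNA per cell cannot be told apart.

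Both Mob1 genes were higher in migratory crest, mob1ba by far the more and mob1a only just past the threshold, while yap1 was seen at both stages. Tead and Lats genes had low or no values in most premigratory libraries and uneven values in migratory ones. Of the 10 members 9 reached 10 in 4 libraries or more and were tested, 2 were called higher (mob1ba and mob1a) and 0 lower, at a Benjamini-Hochberg adjusted p under 0.05 in limma over all 12122 tested genes. Of all tested genes 12.4% were called higher and 0.132% lower (1508 and 16; 139 and 53 with quantile normalisation). An unadjusted p under 0.05 with a higher migratory level was reached by 5 members and by 31.8% of all tested genes, and with a lower one by 0 members and 0.66%. The median log2 fold change was 3.28 over the 9 members and 2.67 over all tested genes. Since tead1a, 1 identifier of TEAD3 and mob1ba passed the filter through migratory libraries alone, such a median or count of members says nothing of the members as a group. With the shared batch number as a fixed replicate block 0 members and 0 of all genes were called. The change in that fit rests only on the 4 pairs of libraries that share a number. With the number as a random block mob1a and mob1ba were called (adjusted p = 0.0465 and 0.000371), as were 1543 genes higher and 17 lower.

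**Figure D1:**
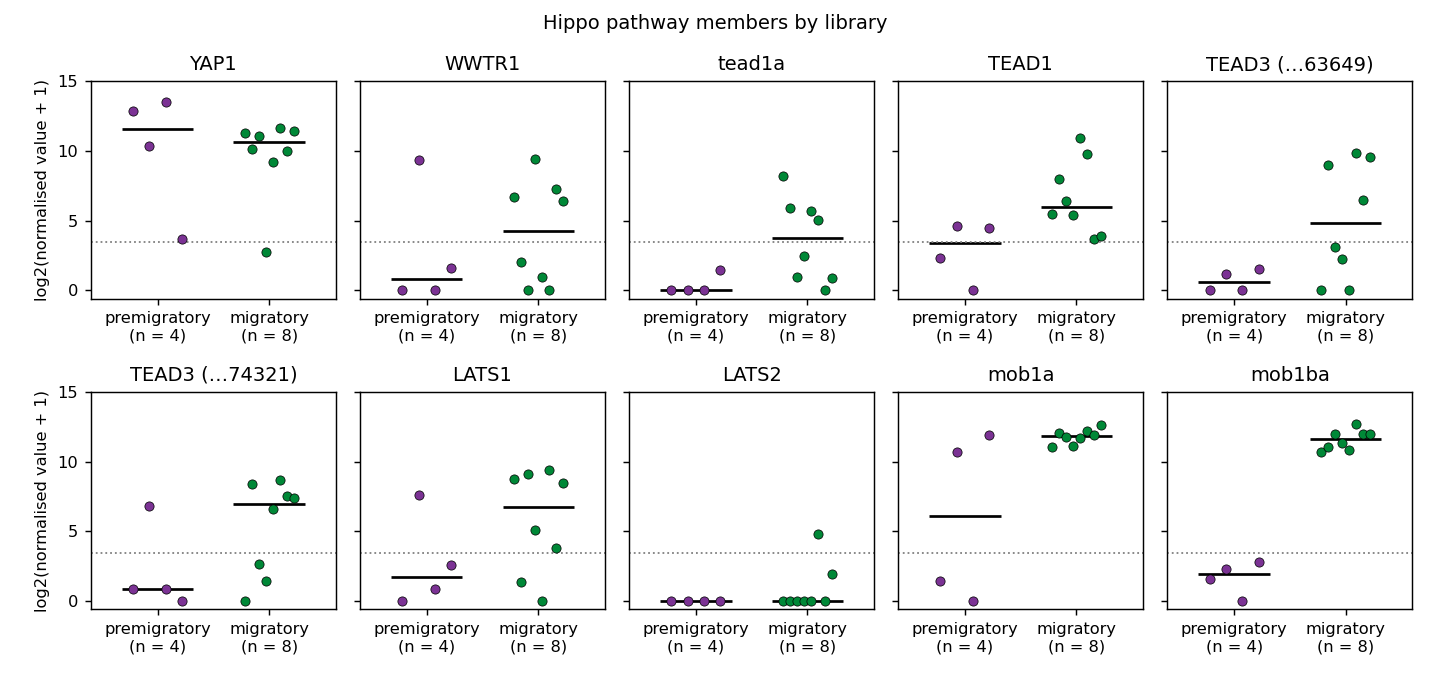
Each panel plots log2(normalised value + 1) of 1 member, 1 point per library, for 4 premigratory and 8 migratory libraries, with a bar at the median and a dotted line at a value of 10. Migratory points of mob1ba all lie above the premigratory ones, while those of the other members overlap with them.

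The coactivator gene YAP1 (ENSDARG00000068401) stood at 7239, 1269, 11280 and 11.6 in premigratory replicates 1 to 4. Its migratory values had a lowest of 5.82, a median of 1656 and a highest of 3210. Premigratory replicates 3 and 1 were the highest of all 12 libraries, premigratory replicate 4 and migratory replicate 4 were near 10 or below, and the groups overlapped. The means were 4950 ± 5268 (SD, n = 4) and 1665 ± 1136 (SD, n = 8), and the log2 fold change was -0.37 (SE 1.87, 95% confidence interval -4.32 to 3.57, adjusted p = 0.910). The interval includes large changes in both directions, so these libraries do not settle whether the level changed.

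Within pairs of libraries that share a batch number, YAP1 was lower in the migratory library in 4 of 4 pairs, by log2 differences of -1.54, -0.15, -2.38 and -0.89. Number 4 compares 11.6 with 5.82, both low values, and number 2 compares the near levels 1269 and 1143. The larger differences, of numbers 1 and 3, come from premigratory replicates 1 and 3. The fit with the number as a fixed replicate block, whose estimate is the mean of the 4 pair differences, gave -1.24 (SE 1.81, adjusted p = 0.724). Direction turned with single libraries: without premigratory replicate 1 or 3 the log2 fold change was 0.55 or 0.76, and without migratory replicate 4 it was 0.62, none of them called. Premigratory replicates 3 and 1 also had the fewest genes at 10 or more (3650 and 4773), and replicate 1 the highest sum of 16 epidermis markers, 2662212 against 13604 to 456284 in the other premigratory libraries. The part of these in the YAP1 values was not tested.

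WWTR1 (ENSDARG00000067719), the gene of Taz, was listed at 0, 646, 0 and 2.00 in premigratory replicates 1 to 4. Migratory values ran from 0 through a median of 44.4 to 694. Premigratory replicate 2 alone was above 10 before migration, as were 4 of 8 migratory libraries, and the ranges overlapped almost wholly. Its log2 fold change was 1.37 (SE 2.18, adjusted p = 0.688). In migratory replicate 4, where YAP1 was lowest, WWTR1 had its highest value of 694, and in premigratory replicates 1 and 3, where YAP1 was highest, WWTR1 was listed at 0. Other libraries did not follow this: YAP1 and WWTR1 were at 1269 and 646 in premigratory replicate 2, and at 11.6 and 2.00 in premigratory replicate 4. Over the 12 libraries the Pearson correlation of the log2 values of both genes was -0.36, a weak relation given as a description.

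Tead factors bind DNA and give Yap and Taz their access to target genes. TEAD1 (ENSDARG00000059483), the row taken for tead1b, was at 4.04, 23.1, 0 and 20.7 in premigratory replicates 1 to 4. In migratory libraries its lowest value was 11.6, its median 64.0 and its highest 1910. All 8 migratory libraries reached 10 and 2 of 4 premigratory libraries did, and migratory replicates 7 and 8 (11.6 and 13.6) lay below the highest premigratory value. The log2 fold change was 3.84 (SE 1.73, adjusted p = 0.138) and did not pass the test. Pairs of the same number were all higher in the migratory library, by 0.94 to 6.42. The highest value came from migratory replicate 5, which also had the highest sum of 13 blood markers (2490176, against 455 to 25013 in the other migratory libraries), and without this library the log2 fold change was 3.23 (adjusted p = 0.162). The part of blood RNA in the TEAD1 values was not tested.

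For tead1a (ENSDARG00000028159) the premigratory values were 0, 0, 0 and 1.76. Migratory values had a lowest of 0, a median of 18 and a highest of 289, with 4 of 8 libraries at 10 or more. Its change on the log2 scale was 3.28 (SE 1.54, adjusted p = 0.153). Migratory replicate 1, which held the highest value, also had the highest sum of 11 muscle markers (886924). The next highest sums, in migratory replicates 8, 6 and 2 (410648, 347454 and 323066), went with tead1a values of 0.889, 31.4 and 59.6. The part of muscle RNA in the tead1a values was not tested. Since just 4 libraries reached 10, tead1a no longer passed the filter on low values without any 1 of migratory replicates 1, 2, 5 and 6.

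The TEAD3 row ENSDARG00000063649 was at 0, 1.2, 0 and 1.83 before migration. Its migratory values ran from 0 through a median of 48.0 to 899, a change of 4.37 on the log2 scale (SE 1.99, adjusted p = 0.142). Migratory replicates 2, 6, 7 and 8 held 511, 899, 88.2 and 749, and the other 4 lay under 10. The TEAD3 row ENSDARG00000074321 was at 0.814, 114, 0.810 and 0 in premigratory and at 0 to 405 (median 128) in migratory libraries, giving a log2 change of 3.17 (SE 1.96, adjusted p = 0.264). It too was above 10 in migratory replicates 2, 6, 7 and 8, and also in replicate 5. The Pearson correlation of the log2 values of both TEAD3 rows over the 12 libraries was 0.74. Paralogs such as these can share reads, and how the authors' counting divided such reads is not given in the sources used here.

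Of the Lats kinases, which phosphorylate Yap and Taz, LATS1 (ENSDARG00000003751) was at 0, 190, 0.816 and 4.87 in premigratory replicates 1 to 4. Migratory values ran from 0 through a median of 189 to 684, with 6 of 8 libraries at 10 or more. The groups overlapped, and the log2 fold change was 3.00 (SE 2.10, 95% confidence interval -1.43 to 7.42, adjusted p = 0.328). Within numbers the difference was -6.20 for number 2 and 2.52 to 8.71 for the other 3 numbers. LATS2 (ENSDARG00000078864) had a listed value of 0 in each of the 4 premigratory and in 6 of 8 migratory libraries. The other migratory values were 26.6 in replicate 6 and 2.91 in replicate 8, too few for a test.

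Mob1 proteins bind Lats kinases and help activate them. The mob1ba gene (ENSDARG00000009169) was at 2.03, 3.88, 0 and 5.82 in premigratory replicates 1 to 4. In migratory libraries its lowest value was 1616, its median 3270 and its highest 6710. Every migratory library lay far above every premigratory library, a separation found upwards in 4.83% of all tested genes and downwards in 0.14%. The log2 fold change was 9.89 (SE 1.25, 95% confidence interval 7.26 to 12.53, adjusted p = 0.000398), and 99.8% of all tested genes had a lower one. Being under 10 in every premigratory library, mob1ba passed the filter through migratory libraries alone, which largely set the direction of its change. Differences within the 4 shared numbers were 9.06, 8.74, 11.95 and 8.56. The call held in 23 of 24 alternatives, with log2 fold changes of 6.73 to 10.98 over all 24. It was lost with the number as a fixed replicate block (9.58, SE 2.37, adjusted p = 0.158).

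The sum of 11 muscle markers was 606 to 3796 before migration and 1025 to 886924 in the migratory libraries. It was 1289, 1527 and 1025 in migratory replicates 3, 4 and 7, within the premigratory range, and mob1ba was at 3967, 2573 and 4047 there. The highest premigratory sum, 3796 in replicate 3, was mostly ACTA1 ENSDARG00000036371 (3739), and that of replicate 1, 1582, mostly TNNC2 (1360). Sums within 1 range therefore need not reflect the same markers. Single markers differed in migratory replicates 3, 4 and 7. There ckma was above every premigratory value (10.5, 314 and 37.8, against 0 to 3.94). In replicates 3 and 7, but not in 4, actc1b (673 and 268, against 10.2 to 82.0) and MYOD1 (258 and 114, against 1.02 to 95.2) were too. MYOG was above them in replicate 4 only (1101, against 29.4 to 548). TNNC2 and that ACTA1 row did not exceed their premigratory ranges. Without premigratory replicate 1 and migratory replicate 5, the libraries highest in epidermis and blood markers, the log2 fold change of mob1ba was 9.97 (adjusted p = 0.000521). The libraries kept still held epidermis sums up to 1000531 (migratory replicate 8) and muscle sums up to 886924 (migratory replicate 1). The part of RNA from other tissues in the mob1ba difference was not tested. The lower number of genes seen in premigratory libraries moved with that difference, and its part was not tested. Of the 3614 genes at 10 or more in all 8 migratory libraries, 5.73% (207, mob1ba among them) were under 10 in all 4 premigratory libraries and 31.9% were at 10 or more in all 4.

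The paralog mob1a (ENSDARG00000102320) was at 1.74, 1631, 0 and 3839 in premigratory replicates 1 to 4. Its migratory values had a lowest of 2120, a median of 3609 and a highest of 6355. Premigratory replicates 1 and 3 were near 0 and replicate 4 lay within the migratory range. Replicates 1 and 3 also had the fewest genes at 10 or more (4773 and 3650), and the part of this was not tested. Of the 3614 genes at 10 or more in all 8 migratory libraries, 22.6% reached 10 in exactly 2 premigratory libraries, as mob1a did. Migratory levels were higher by 5.79 on the log2 scale (SE 1.84, 95% confidence interval 1.91 to 9.67, adjusted p = 0.0480), just inside the threshold. This call was lost in 19 of 24 alternatives, among them the fixed replicate block (adjusted p = 0.235), leaving out premigratory replicate 1 or 3 (adjusted p = 0.135 and 0.161) and leaving out any 1 migratory library (adjusted p = 0.0550 to 0.0741). In all 24 the level was higher in migratory libraries, by 3.79 to 7.76 on the log2 scale. Within the 4 shared numbers the differences were 9.60, 1.37, 11.75 and -0.78, so that number 4 went the other way.

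Levels of both Mob1 genes varied less among migratory libraries than those of most genes seen in all of them. The SD of log2 values over the 8 migratory libraries was 0.53 for mob1a and 0.71 for mob1ba, and the median SD was 1.07 over the 3614 genes at 10 or more in all 8. It was 2.65 for TEAD1, the only other member at 10 or more in all 8. The genes compared were not matched for level. The lowest migratory value was 11.6 for TEAD1, 1616 for mob1ba and 2120 for mob1a, and the part of level in the SD was not tested. Another Mob1 gene, mob1bb (ENSDARG00000012953), is not a member and was taken from the pathway list. It was at 0, 1.94, 0 and 0 before migration and 0.959 to 2073 (median 348) after it began, a change of 5.94 on the log2 scale (SE 2.08, adjusted p = 0.0675). Migratory replicates 2, 3 and 4 were under 2 for mob1bb, although mob1a and mob1ba were high there. It passed the test in 3 alternatives only: without migratory replicate 2 or 4 (adjusted p = 0.0473 and 0.0351) and with log2(value + 0.1) (adjusted p = 0.0304). Leaving out a low migratory library raises the difference by construction.

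**Figure D2:**
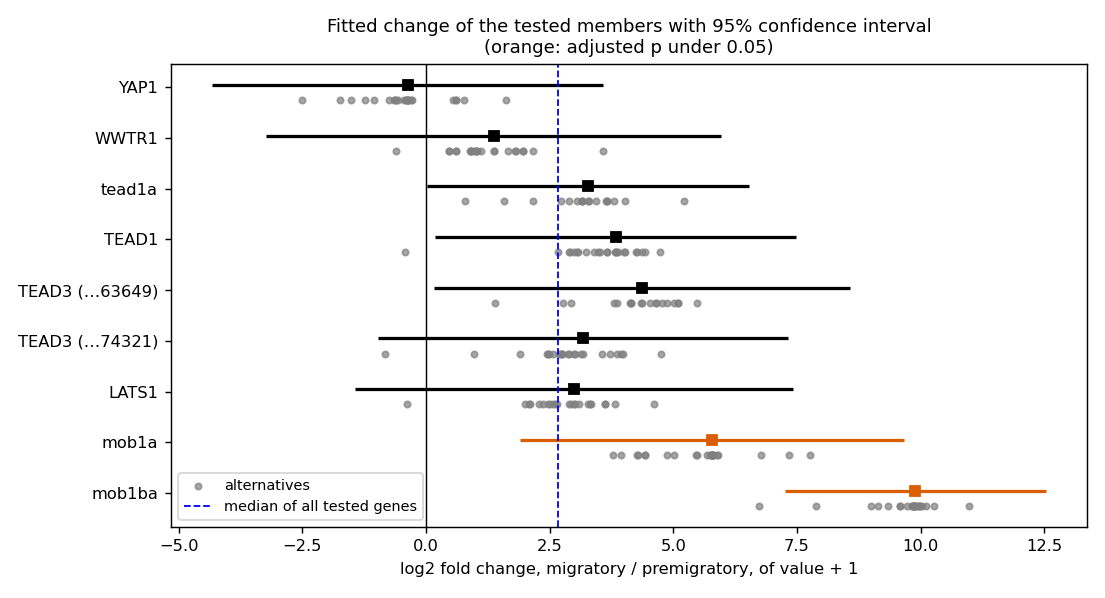
Squares give the fitted log2 fold change of the 9 tested members, bars the 95% confidence interval, grey dots the values under the alternatives, and the dashed line the median of all tested genes, 2.67. Called members are in orange: the interval of mob1ba (7.26 to 12.53) lies wholly above that median and the interval of mob1a (1.91 to 9.67) does not.

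Read across a library, the members differed in which roles were present together at a value of 10 or more. A coactivator was present in 4 of 4 premigratory and 8 of 8 migratory libraries. A Tead gene was present in 2 of 4 and 8 of 8, a Lats gene in 1 of 4 and 6 of 8, and a Mob1 gene in 2 of 4 and 8 of 8. Of all tested genes, 28.8% to 52.5% reached 10 in each premigratory library and 64.0% to 84.9% in each migratory library. These counts were not told apart from that difference. The Tead role also had more rows (4) than the others, and in premigratory replicate 4 the coactivator was YAP1 at 11.6, just above 10. All 4 roles were present in 1 premigratory library, replicate 2, and in 6 migratory libraries. Premigratory replicates 1 and 3, with the highest YAP1 values, had no other member at 10 or more, and their highest Tead values were 4.04 and 0.810. Those libraries also had the fewest genes at 10 or more of any kind, and the part of this was not tested. Migratory replicates 2 and 5 lacked a Lats gene at that level.

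**Figure D3:**
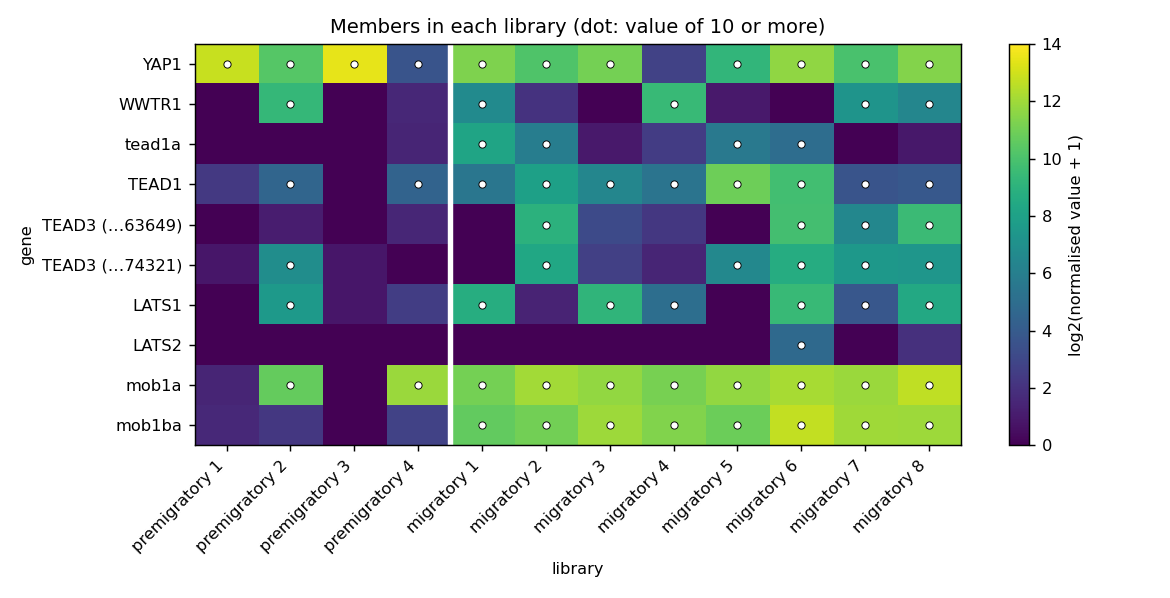
Colour gives log2(normalised value + 1) of each member (rows) in each library (columns), and a white dot marks a value of 10 or more. Premigratory replicates 1 and 3 have 1 dot each, for YAP1, whereas migratory libraries have 5 to 9 of 10. Of all tested genes, 35.5% and 28.8% reached 10 in premigratory replicates 1 and 3, and 64.0% to 84.9% in migratory libraries.

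**Figure D4:**
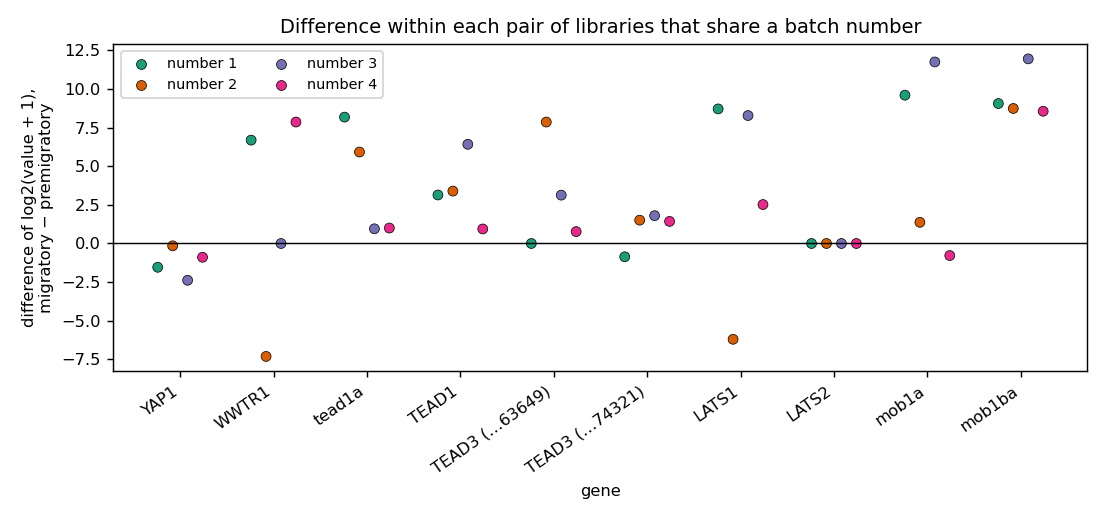
Points give, for each member, the migratory minus premigratory difference of log2(value + 1) in the 4 pairs of libraries with the same batch number. All 4 points of mob1ba lie at 8.56 or more and all 4 of YAP1 below 0, whereas WWTR1, LATS1, mob1a and TEAD3 ENSDARG00000074321 have points on both sides.

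Other genes of the pathway were taken from lists that hold 139 rows besides the members. Of these 95 were tested, 9 were called higher (9.47%, against 12.4% of all tested genes) and 0 lower, with a median log2 fold change of 2.83. Rows under 10 in every premigratory library passed the filter through migratory libraries alone, which largely set their direction. The called rows of MAP4K5, RASSF2, PPP2CA, NUAK2 and PALS1 are such rows. Counts and medians of a list therefore say nothing of the list as a group, and each count below stands against the 12.4% of all tested genes. Each named gene below is among the 4 of its list with the smallest p, unless stated.

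Among the core kinases and scaffolds 0 of 5 tested rows were called (median 1.86). SAV1, the scaffold of Stk3 and Stk4, was at 0, 1302, 3082 and 1.96 before migration and 3.97 to 498 (median 235) after it began, giving a log2 change of 1.42 (SE 2.19, adjusted p = 0.677). STK38, a kinase related to Lats that also binds Mob1, had 2 rows with log2 fold changes of 2.68 and 1.86 (adjusted p = 0.226 and 0.597).

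Of 20 tested upstream regulators 2 rose and 0 fell (median 3.23). MAP4K5, of a kinase family that can activate Lats, was at 0.784, 0, 0 and 3.81 before migration and 10.9 to 1899 (median 592) after it began, giving a log2 change of 7.65 (SE 1.61, adjusted p = 0.00783). RASSF2, an adaptor that binds Stk3 and Stk4, was at 0, 2.21, 0 and 3.53 and at 9.50 to 1773 (median 452), giving a log2 change of 7.40 (SE 1.57, adjusted p = 0.00806). Groups were separated for both genes, which passed the filter through migratory libraries alone. Both calls were lost with quantile normalisation and with the fixed replicate block (adjusted p = 0.157 and 0.215 for MAP4K5, 0.185 and 0.194 for RASSF2, in that order).

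Another upstream gene had its high values before migration. The nf2a gene codes for Merlin, which brings Lats kinases to the membrane, and stood at 5187, 2713, 11.6 and 1520 in premigratory replicates 1 to 4. Its migratory values had a lowest of 4.21, a median of 13.4 and a highest of 1121, the latter in replicate 5. Premigratory replicate 3 lay in the range of most migratory libraries, and the groups overlapped. On the log2 scale the change was -5.02 (SE 1.95, adjusted p = 0.0941) and did not pass the test. It passed in 3 alternatives only: without premigratory replicate 3 (-6.97, adjusted p = 0.0384), without migratory replicate 5 (-5.83, adjusted p = 0.0419) and with quantile normalisation (-7.29, adjusted p = 0.0364). Those replicates held its lowest premigratory and its highest migratory value, so leaving either out widened the difference by construction. Its paralog nf2b, named after its values were seen, was at 3.62, 0, 10.2 and 6.02 before migration and 0.796 to 723 (median 38.6) after it began, giving a log2 change of 3.57 (SE 1.78, adjusted p = 0.171).

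Among cytoplasmic tethers and degradation factors 1 of 17 tested rows rose (median 1.89). It was csnk1e, a casein kinase of the family that marks Yap and Taz for degradation after Lats, at 1.3, 15.5, 0 and 5.57 before migration and 8.03 to 3402 (median 758) after it began. Its log2 fold change was 7.26 (SE 1.74, adjusted p = 0.0149), a call lost with quantile normalisation (3.41, adjusted p = 0.28) and with the fixed replicate block (6.65, adjusted p = 0.226). For YWHAH, an adaptor of the family that holds phosphorylated Yap in the cytoplasm, and fbxw11a, a subunit of a ubiquitin ligase, the log2 fold changes were 5.64 and 6.00 (adjusted p = 0.0605 and 0.0643). YWHAH passed the test only without premigratory replicate 4 or migratory replicate 4 (adjusted p = 0.0123 and 0.0224). For fbxw11a this was so only without migratory replicate 1 or 5 (adjusted p = 0.0258 and 0.0253). Leaving out these libraries, at 1605 and 19.6 for YWHAH and at 0 for fbxw11a, raises the difference by construction.

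STRIPAK is a phosphatase complex that acts against Stk3 and Stk4. Of its 20 tested rows 4 rose and 0 fell, with a median of 4.14, where 12.4% of all tested genes were called higher. A higher migratory level was found in 20 of 20, as in 85.5% of all tested genes. The count called was 1 to 6 when single libraries were left out (1 without premigratory replicate 3), 1 with trimmed mean of M values or median of ratios, and 0 with quantile normalisation or the fixed replicate block, and rows with a higher migratory level numbered 17, 17 and 16 with those 3 scalings. MOB4, a subunit related to Mob1, was at 6792, 0.958, 0.974 and 2.93 before migration and 794 to 6732 (median 2593) after it began, giving a log2 change of 7.12 (SE 1.87, adjusted p = 0.0224). Premigratory replicate 1 alone was high before migration, both for MOB4 and for the kinase STK24 (1263, 1.45, 1.26 and 3.59, against 693 to 4902), whose log2 fold change was 7.09 (SE 1.66, adjusted p = 0.0133). 1 row each of PPP2CA, a catalytic subunit, and PDCD10, an adaptor, also rose (5.84 and 5.36, adjusted p = 0.0252 and 0.0471). Calls were lost in 6 alternatives for MOB4, 2 for STK24, 10 for PPP2CA and 19 for PDCD10.

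Of 31 rows of Yap and Taz target genes, which include LATS2, 13 were tested, 1 rose and 0 fell, with a median of 3.72. NUAK2, a kinase, rose from 0.995, 0, 0 and 0 in premigratory libraries to 0.945 to 1365 (median 168) in migratory ones, giving a log2 change of 6.18 (SE 1.87, adjusted p = 0.0402), a call lost in 14 alternatives. FJX1 and 2 rows of ASAP1 had log2 fold changes of 6.22, 5.02 and 4.37 (adjusted p = 0.0614, 0.0672 and 0.0911). FJX1 passed the test in 4 alternatives (adjusted p = 0.0335 to 0.0388), among them without migratory replicate 1, 2 or 4, its lowest migratory values. ASAP1 ENSDARG00000039729 passed in 1 (adjusted p = 0.0487).

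CCN1 and CCN2, secreted matrix proteins and the most used readouts of Yap activity, were named after their values were seen. CCN2 was at 3469, 0, 8318 and 0.977 in premigratory replicates 1 to 4. In migratory libraries it was at 0 to 2069 (median 1.47), with its highest value in replicate 6. Premigratory replicates 3 and 1 and migratory replicate 6, the highest of their groups for CCN2, were also the highest of their groups for YAP1. Other libraries did not follow this. In premigratory replicate 2 YAP1 was at 1269 and CCN2 at 0, and the migratory medians were 1656 for YAP1 and 1.47 for CCN2. A relation of the genes was not tested. The log2 fold change of CCN2 was -3.29 (SE 2.76, adjusted p = 0.422). CCN1 was at 0, 0, 2993 and 2.92 before migration and 0 to 2699 (median 687) after it began, giving a log2 change of 4.95 (SE 2.39, adjusted p = 0.161).

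Neither Vgll and other Tead cofactors (0 of 11 tested, median 2.14) nor polarity scaffolds (1 of 11, median 2.83) held more calls. The polarity gene that rose was PALS1 (ENSDARG00000006272), at 0, 0, 0 and 2.25 before migration and 1.16 to 557 (median 63.9) after it began, giving a log2 change of 5.38 (SE 1.66, adjusted p = 0.0434), a call lost in 18 alternatives. VGLL2, a Tead cofactor of muscle, had a change of 2.47 (SE 1.27, adjusted p = 0.183) on the log2 scale and IRF2BP2 (ENSDARG00000098635) one of 5.30 (SE 2.11, adjusted p = 0.101). The latter passed the test only without premigratory replicate 2 or migratory replicate 5 (adjusted p = 0.0425 and 0.046). These held its highest premigratory and its lowest migratory value, so the difference grew by construction.

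**Figure D5:**
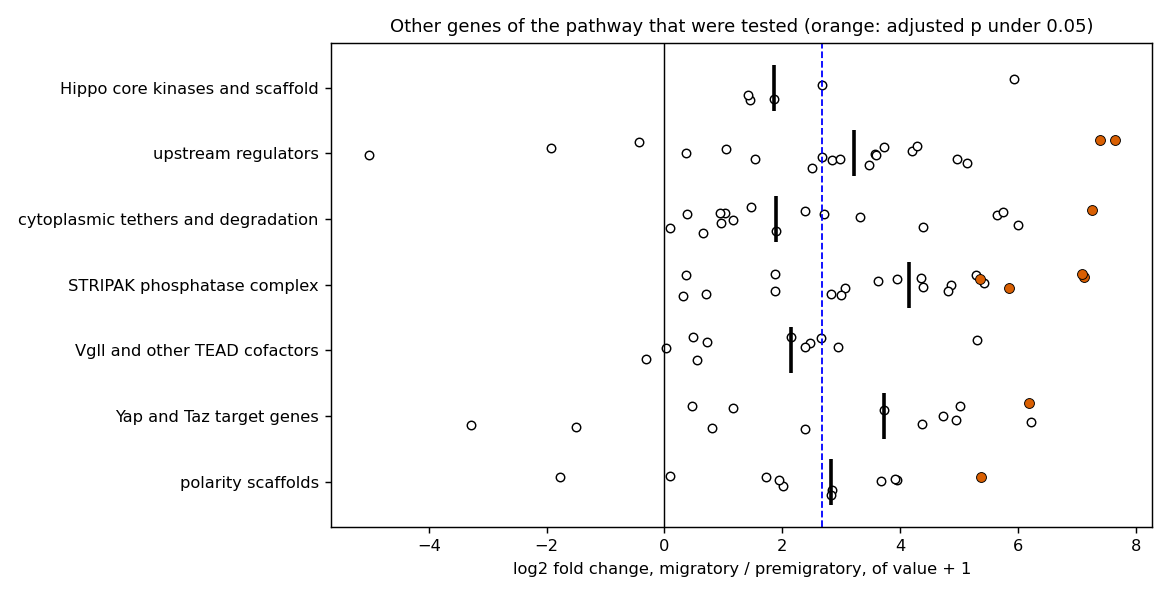
Points give the log2 fold change of each tested gene of 7 pathway lists, in orange where it was called, with a black bar at the list's median and a dashed line at 2.67, the median of all tested genes. The lowest point, at -5.02, is nf2a, and the highest, at 7.65, is MAP4K5.

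The genes most like YAP1 over the 12 libraries, by Pearson correlation of log2 values, were IK (0.97), a splicing factor, LRRC8A (0.94), a subunit of an anion channel, SUCLA2 (0.94), an enzyme of the citric acid cycle, PSMD11 (0.94), a proteasome subunit, and GNAI2 (0.93), a G protein subunit. Each was under 10 in premigratory replicate 4 and migratory replicate 4, as YAP1 nearly was in the former and was in the latter. Spearman's rho was 0.73, 0.76, 0.62, 0.64 and 0.85 in the same order. Without these libraries the Pearson correlations were 0.78, 0.67, 0.35, 0.25 and 0.61. They are the highest of all tested genes with a symbol and serve as a description of these libraries.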

How the data were processed

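RNA of 20 cells per library was sequenced after SMART-Seq v4 amplification and Nextera libraries, per the labels' protocols. The table deposited by the authors holds a normalised signal per gene, which its name calls normalised counts. The submitters' processing notes name fastp 1.0, Salmon and GRCz11, and the normalisation is not given in the sources used here. Only 8.80% to 33.2% of low values in a library came out as whole reads (tolerance 0.02), so whole reads were not recovered, no count test was run, and depth is known only as sums of values. Amplified reads are not independent molecules. Columns left out numbered 0.

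Symbols came from a table of gene names. Groups are those of the library names. Genes at 10 or more in at least 4 libraries were tested by lmFit and trended eBayes of limma 3.58.1, run in R 4.3.3, on log2(value + 1), which understates changes of low genes, and Benjamini-Hochberg adjustment over 12122 genes. The fit was tested on simulated, normally distributed log2 values without a lower bound and without the filter. The real values have a lower bound and were filtered, so that simulation does not speak for the calls made here. The titles call the libraries biological replicas, without saying whether they share embryos, and p-values cover the spread seen among them.

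The labels call the replicate number a batch, so numbers 1 to 4 pair libraries of both groups. Deviations from group means correlated at 0.0118 to 0.155 for same-numbered pairs (mean 0.0608) and at -0.0924 to 0.123 for others (mean -0.00871). Numbers 5 to 8 hold migratory libraries only, so they add nothing to the change estimated with the fixed block. The block was an alternative.

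Members, lists and markers were chosen with earlier results of these data known. Named genes are all members, up to 4 tested genes of each pathway list with the smallest p, and the 5 genes most correlated with YAP1. Genes of the pathway lists named outside this rule, among them nf2b, CCN1, CCN2 and those at 10 or more, or under 10, in all 12 libraries, were chosen after their values were seen. A pathway gene that this rule names is not reported here. Alternatives covered the pseudocount, filter, scaling, library weights, the replicate block and leaving out libraries. Median-of-ratios scaling and leaving out premigratory replicate 1 with migratory replicate 5 were chosen after seeing the data. Tables and figures were made in Python 3.11.15 with pandas 2.3.3, numpy 2.4.6 and matplotlib 3.10.9.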

Additional observations from a re-analysis of the deposited data

Results flagged for a closer look

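Of 19 group-wise sets of member values that were checked on the log2 scale, 5 had 1 library far from the others of its group. The cut-off would be passed by about 1 in 20 sets of normally distributed values. Sets such as those of LATS2 and tead1a hold many values of 0, so that rate does not apply and no excess can be read from the count. YAP1 was at 5.82 in migratory replicate 4, far below the other migratory libraries. WWTR1 was at 646 and TEAD3 (ENSDARG00000074321) at 114 in premigratory replicate 2, far above the other premigratory libraries. LATS2 was at 26.6 in migratory replicate 6, while 6 of 8 migratory libraries were listed at 0. The value of tead1a in premigratory replicate 4 was 1.76 against 0 in the other premigratory libraries, a gap close to the step of the lowest values.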

How the results depend on the processing

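Members called higher numbered 2, but 1 with log2(value + 10), no filter, same total, trimmed mean of M values, quantile normalisation, library weights, median of ratios or without premigratory replicate 1 and migratory replicate 5. The count was 0 with the replicate block as a fixed term and 1 to 2 when single libraries were left out. No member was called lower in any of the 24 alternatives (0 to 0 without single libraries). Of all tested genes, those called higher numbered 821 with log2(value + 10), 851 with no filter, 936 with 10 or more in at least 8 libraries, 675 with trimmed mean of M values, 765 with median of ratios, 139 with quantile normalisation and 0 with the fixed replicate block, and 771 to 1911 without single libraries. Those called lower numbered 7, 65, 58, 53, 5 and 0 with no filter, trimmed mean, median of ratios, quantile normalisation, library weights and the fixed replicate block, and 6 to 19 without single libraries. Over all tested genes the median change was 2.35, 1.69, 1.86 and 0.00 with same total, trimmed mean, median of ratios and quantile scaling.

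The sign turned, with no call, under quantile normalisation for WWTR1 (-0.60), TEAD1 (-0.43), TEAD3 ENSDARG00000074321 (-0.83), LATS1 (-0.39), both STK38 rows (-0.19 and -0.79), SAV1 (-1.09), NCOA3 (-1.94) and ASAP1 ENSDARG00000029463 (-0.039). It also turned for YWHAB ENSDARG00000013078 with trimmed mean (-0.34) and median of ratios (-0.13). YAP1 turned with library weights (1.62) and without premigratory replicate 1 and migratory replicate 5 (0.61), and lay at -2.51 to 0.76 without single libraries. SAV1 was at -0.77 without that pair, at -0.54 and -0.01 without premigratory replicates 1 and 4, and at -0.54 to 3.33 without single libraries. The causes were not tested. The random replicate block (correlation 0.0175) changed no member's call. A fit with the fixed block has few residual degrees of freedom, and 12 libraries of 20 cells limit precision for all members. The size of the mob1ba change was imprecise too, with an SE of 1.25 without the block and 2.37 with the fixed block.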

Other observations

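Of the 139 pathway rows besides the members, 9 were at 10 or more in all 12 libraries (6.47%, against 4.46% of all rows of the table). All 9 were tested, and they made up 9.47% of the 95 tested pathway rows, close to the 9.51% of all tested genes. They were both rows of YWHAB, ywhae2, ywhaqb and ywhaz, adaptors that bind phosphorylated proteins such as Yap, the kinase CSNK1A1, the phosphatase subunit ppp2cb, IRF2BP2 (ENSDARG00000004702) and the polarity scaffold dlg1b. None passed the test. YWHAB (ENSDARG00000013078) lay at 4150 to 17102 before migration and at 15115 to 24947 later, giving a log2 change of 1.03 (SE 0.36, adjusted p = 0.0685), which was below 0 with 2 of the scalings and passed the test in 3 alternatives (adjusted p = 0.0264 to 0.0483). For ywhaz the log2 fold change was 0.09 (SE 0.74, adjusted p = 0.946).

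At the other end, 11 pathway rows were under 10 in all 12 libraries (7.91%, against 27.5% of all rows of the table). Of these 6 are target genes of Yap and Taz in other settings: ccn1l1, ccn2b, foxf2a, foxf2b, NT5E and TGFB2, with a highest value of 4.89 in any library. The target list has 31 rows, so 6 is a smaller share than the 27.5% of all rows of the table. The polarity genes crb2a and crb2b, WTIP, taok3b and 1 row of STK24 (ENSDARG00000100955) were also under 10 throughout.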
